A study of Mus musculus with 4 samples.

Results

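The comparison described here is the effect of GW501516, a synthetic compound that activates the nuclear receptor PPARδ, in the mammary gland of mice that carry a PPARδ transgene. It rests on 2 of the 4 arrays of the study, chosen by their labels: the array of MMTV-PPARd mice on chow with GW501516 was set against the array of MMTV-PPARd mice on chow alone. All animals were female nulliparous mice on the FVB strain background, and the controls of the study were wild-type littermates matched for age, kept on the same 2 diets. The ages themselves are not given in the sources used here. Feeding lasted 1 week, and the labels gave the agonist content of the chow as 0.005% in the protocol and source names but as 0.001% in a treatment tag, a conflict that the values could not settle. RNA of 5 mice was pooled in equal amounts for each group, so each group was 1 array of 1 pool, with 22690 probe sets per array. Every value below therefore describes these pools: no p-value, standard error or replicate spread exists, and a difference is given as a fold or as a log2 difference (GW501516 minus chow). The transgene was driven by the promoter of the mouse mammary tumour virus, which is active mainly in mammary epithelium and responds to steroid hormones. The labels do not say how many founder lines were used, and the whole gland also holds fat, stroma, vessels, nerve, skeletal muscle at its edge and, often, a lymph node.

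PPARδ forms a heterodimer with a retinoid X receptor and, when a fatty acid or a synthetic agonist is bound, raises transcription of genes of fatty acid transport and oxidation. In the nulliparous gland the epithelium is a sparse ductal tree within a fat pad. Lactogenic differentiation, which normally comes with pregnancy under prolactin and progesterone, brings caseins, whey proteins, the lactose synthase subunits and the milk fat globule proteins.

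Values were intensities, in arbitrary units on a linear scale, that the authors had scaled to a common trimmed mean on each array. A floor was set at the 25th percentile of the values on all 4 arrays, and lower intensities were raised to it before log2 was taken. A fold with 1 side below the floor is written as at least N-fold. A gene was represented by its brightest probe set and was kept if any of the 4 arrays reached the overall median intensity, which left 7836 of 12394 named genes. Where wild-type values are given as a pair, chow comes first and GW501516 second. Intensities of different genes come from different probes and are not set against each other.

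Ppard itself, the gene of the transgene, was read at 1943 on chow and 4223.5 on GW501516 in transgenic mice, and 2.1 and 1.5 in wild type. Both wild-type arrays lay below the floor and both transgenic arrays far above it, and on GW501516 the transgenic signal was 2.17-fold higher. The gene had 1 probe set, and whether that probe set reads the gene's own transcript in wild type was not tested. The transgenic chow array stood apart in technical readings. The bacterial spike-in control BioB-M read 32.4 there and 438.1 to 519.0 on the other 3 arrays, the spike-in CreX-3 read 7135 against 9717 to 11058, and its highest intensity was 14309 against 19396 to 21520. Gapdh, a glycolytic enzyme often used as a reference, was 3572.5 on chow and 10269 on GW501516 in transgenic mice, and 8730.0 and 12274 in wild type. Actb, cytoskeletal actin, was 10706 on chow and 14216 on GW501516 in transgenic mice, and 13743 and 14252 in wild type. Both genes were lowest on the transgenic chow array. The part these readings play in the differences below was not tested, and since each group was 1 array, array and group cannot be told apart. Markers of the labelled tissue were present: the luminal keratin Krt8 was read at 5932.5 on chow and 8266 on GW501516, and the adipocyte hormone Adipoq at 9984 on chow and 15056.5 on GW501516, in the transgenic pools.

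In transgenic mice, GW501516 came with values at least 2-fold higher for 311 of the 7836 genes (3.97%) and at least 2-fold lower for 318 (4.06%). The median over all genes was -0.034 on the log2 scale, and the middle 90% of genes lay between -0.91 and 0.86. Of all genes 46.8% had a difference above 0, the share to set beside the counts above or below 0 given for lists. A called gene is one that differed at least 2-fold. The shares called higher and lower, 3.97% and 4.06%, are those to set beside the counts of called genes given for lists. In wild type these shares were 3.16% and 3.25%. At least 4-fold, 96 genes were higher and 77 lower. For 6 of the genes called higher and 32 of those called lower, 1 side was below the floor, so only a bound is known. Where a gene had further probe sets, the difference between the kept one and the median of the rest had an SD of 0.49 over 3566 genes, which is scatter within the arrays and not between them. Of the 201 called genes with further probe sets, 17 had them pointing the opposite way. Among genes named below and within 2-fold, the other probe sets had the opposite sign for Angptl4, Fabp4, Krt14, Per3, Rxra, Slc35a2 and Stat5a, so no direction is read from those. For Tspan8, Mvd and Wnt5a, called higher below, the other probe sets were higher by less than 2-fold.

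The 2 wild-type arrays were used to describe on which side a difference lay. Of the 311 genes higher on GW501516, 65 (20.9%) had a transgenic GW501516 value at least 2-fold above each of the other 3 arrays, and 47 (15.1%) had a transgenic chow value at least 2-fold below each of the others. Only Lalba and Ang3 met both descriptions. Of the 318 genes lower on GW501516, 80 (25.2%) had a transgenic chow value at least 2-fold above the other 3 arrays, and 20 (6.29%) a transgenic GW501516 value at least 2-fold below them. The rest, 201 higher and 218 lower genes, followed neither pattern, and of those 128 and 109 were called in the same direction in wild type. The wild-type values also define the patterns, so that overlap depends on the selection. Over all genes called higher and lower, 47.9% and 37.7% were called in the same direction in wild type.

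**Figure D1:**
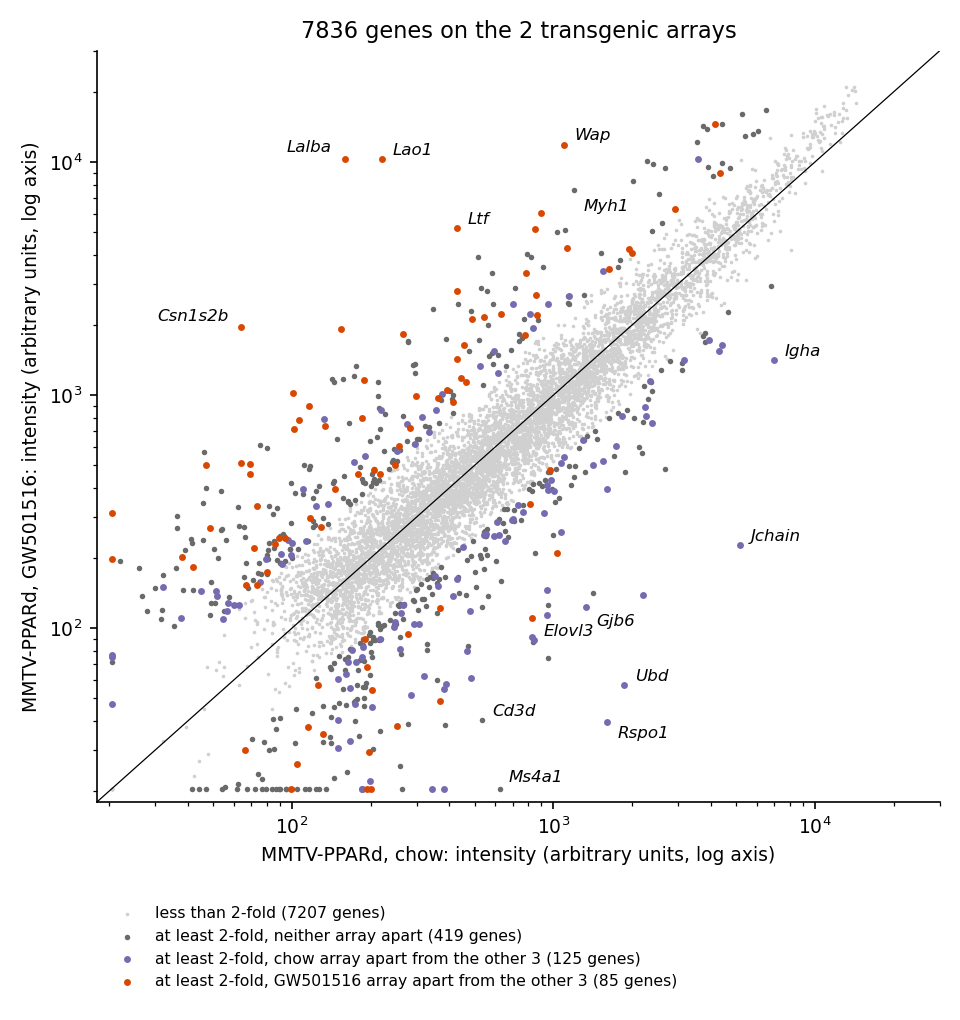
Intensity of 7836 genes on the transgenic chow array (horizontal, log axis) and the transgenic GW501516 array (vertical, log axis), 1 point per gene with values raised to the floor, coloured by whether the called genes had the GW501516 array (85 genes) or the chow array (125 further genes) apart from the other 3. Milk genes such as Lalba and Lao1 lie farthest above the line of equal values, and Rspo1, Ubd and Ms4a1 farthest below it.

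Milk genes had the 3 largest increases of all genes, in Lalba, Lao1 and Csn1s2b. Called higher were 7 of the 13 milk protein genes measured, and 0 were called lower. The list median was 1.35, beside 3.97% called higher and a median of -0.034 over all genes. In wild type the list was as high on GW501516, with 8 of 13 called higher, 1 called lower (Glycam1) and a median of 1.41, beside 3.16% of all genes called higher there. Lalba, α-lactalbumin, the regulatory subunit of lactose synthase, had intensities of 159.0 on chow and 10325 on GW501516 in transgenic mice, and 624.5 and 1768 in wild type. It was lowest in the transgenic chow pool and highest in the transgenic GW501516 pool, 64.9-fold apart, the largest difference among all genes kept. In wild type it was 2.83-fold higher on GW501516. Lao1, an L-amino acid oxidase secreted into milk, was read at 221.2 on chow and 10319 on GW501516 in transgenic mice, and 92.5 and 718.6 in wild type. That is 46.6-fold higher in transgenic mice and 7.77-fold higher in wild type, so both genotypes had the higher value on the agonist. Ltf, the iron-binding protein lactoferrin, had the same order of pools as Lalba, at 426.6 on chow and 5185 on GW501516 in transgenic mice, and 679.6 and 1482 in wild type, a difference of 12.2-fold in transgenic mice.

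Wap and Csn1s2b were low or below the floor in wild type on either diet. Wap, whey acidic protein, was read at 1098 on chow and 11881 on GW501516 in transgenic mice, and 29.8 and 98.6 in wild type, and the transgenic difference was 10.8-fold. Csn1s2b, a minor casein, was read at 63.8 on chow and 1954 on GW501516 in transgenic mice, and 1.2 and 2.7 in wild type, which is 30.6-fold higher in the transgenic GW501516 pool. For both genes the transgenic chow pool was already above both wild-type pools, and the transgenic GW501516 pool was higher again. Cel, a lipase that reaches milk, was read at 282.9 on chow and 721.9 on GW501516 in transgenic mice, and 65.4 and 96.5 in wild type, the same order of pools. Csn3, κ-casein, which stabilises the casein micelle, was bright on all arrays, at 5264 on chow and 15988 on GW501516 in transgenic mice, and 8043 and 11756 in wild type, and its transgenic chow pool was the lowest of the 4. It was 3.04-fold higher on GW501516 in transgenic mice.

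The other caseins were within 2-fold in transgenic mice and more than 2-fold higher on GW501516 in wild type. Csn1s1 was read at 13145 on chow and 21047 on GW501516 in transgenic mice, and 2489.7 and 8302 in wild type, a log2 difference of 0.68 in transgenic mice and 1.74 in wild type. Csn1s2a was read at 14140.0 on chow and 21072 on GW501516 in transgenic mice, and 3215 and 11884 in wild type, or 0.58 and 1.89. Csn2 was read at 10562 on chow and 15562 on GW501516 in transgenic mice, and 2258 and 11104.5 in wild type, or 0.56 and 2.30. Csn1s2a was the brightest reading of the transgenic GW501516 array, 21072, and on the transgenic chow array it and Csn1s1 lay close to the highest intensity, 14309. The other probe sets of Csn1s2a gave a transgenic log2 difference of 1.98, so its size depends on the probe set. Wfdc18 (0.56) and Muc15 (-0.31), a mucin of the milk fat globule membrane, were also within 2-fold. Glycam1, made by both mammary epithelium and the vessels of lymph nodes, was read at 8128 on chow and 4207 on GW501516 in transgenic mice, and 9535 and 2.2 in wild type, with a transgenic log2 difference of -0.95.

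Lactose synthase pairs α-lactalbumin with a galactosyltransferase in the Golgi. Of 8 measured genes of this list, which shares Lalba with the milk proteins, 2 reached 2-fold. The other one, B4galt1, the catalytic subunit, was read at 1136 on chow and 2477 on GW501516 in transgenic mice, and 1465.5 and 1225 in wild type. It was 2.18-fold higher in transgenic mice, and the 3 other pools lay between 1136 and 1466. The glucose transporter Slc2a1 was 1192 on chow and 1474 on GW501516, and Slc35a2, which carries UDP-galactose into the Golgi, was 518.6 on chow and 367.4 on GW501516 (log2 -0.50).

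STAT5, the transcription factor through which prolactin acts on milk genes, binds the palindrome TTCNNNGAA, which is its own reverse complement, so that a search of 1 strand covers both. The bases before the start site were read from RefSeq's promoter table (GRCm38.p6) for 10 of the 15 milk protein, lactose and milk fat genes called higher; 2 of them, Agpat1 (at 1 of its start sites, -247) and B4galt1 (-99), held these letters within 250 bases. Of all 32851 promoters of that length in the table, 2306 (7.02%) held them. The stretches below are those of the 2 lactose synthase genes and of Wap, each 5′ to 3′ on the gene's own strand and ending at the base before the start site, with a match to the palindrome in capitals. They lie at chr15:98482684-98482933, chr4:40853985-40854234 and chr11:6638650-6638899, all on the minus strand. A match describes the letters only, and the absence of one in this window says nothing about the factor.
Lalba: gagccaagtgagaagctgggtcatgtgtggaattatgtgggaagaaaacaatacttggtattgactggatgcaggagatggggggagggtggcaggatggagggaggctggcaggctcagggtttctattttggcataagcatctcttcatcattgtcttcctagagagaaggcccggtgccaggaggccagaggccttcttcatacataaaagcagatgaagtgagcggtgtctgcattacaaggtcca
B4galt1: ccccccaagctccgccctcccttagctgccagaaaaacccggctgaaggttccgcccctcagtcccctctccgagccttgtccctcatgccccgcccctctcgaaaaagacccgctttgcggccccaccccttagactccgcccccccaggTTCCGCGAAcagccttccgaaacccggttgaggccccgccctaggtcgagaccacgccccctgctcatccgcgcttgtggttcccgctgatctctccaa
Wap: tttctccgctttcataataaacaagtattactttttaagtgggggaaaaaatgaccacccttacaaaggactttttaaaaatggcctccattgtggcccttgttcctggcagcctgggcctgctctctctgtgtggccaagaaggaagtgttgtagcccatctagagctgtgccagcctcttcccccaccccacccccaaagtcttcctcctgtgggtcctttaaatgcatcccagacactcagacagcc

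Milk fat genes were higher as a list. All 20 measured members had a difference above 0, beside 46.8% of all genes. Other lists also lay mostly above 0, with 26 of 32 respiratory chain, 16 of 20 ribosomal protein and 24 of 27 fibroblast and matrix genes. Of 18 mitochondrial fatty acid oxidation genes, 7 were above 0. How far the lower bright readings of the transgenic chow array enter these counts was not tested. At least 2-fold higher were 7 of them, beside 3.97% of all genes. The list median was 0.61 (0.24 in wild type). Olah, the thioesterase that ends chain growth on fatty acid synthase early to give medium-chain milk fatty acids, was read at 154.1 on chow and 1912 on GW501516 in transgenic mice, and 1.2 and 3.1 in wild type. It was 12.4-fold higher in transgenic mice and below the floor in wild type on both diets. Btn1a1, butyrophilin, a protein of the milk fat globule membrane, was read at 892.9 on chow and 6049.9 on GW501516 in transgenic mice, and 784.4 and 1821 in wild type, or 6.78-fold higher. Xdh, xanthine oxidoreductase, which binds butyrophilin in that membrane, was read at 867.6 on chow and 2207 on GW501516 in transgenic mice, and 799.8 and 1017 in wild type. For each of the 3 genes the transgenic GW501516 pool was the highest of the 4.

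Fabp3, a carrier of fatty acids in the cytosol that is also a known PPAR target, was read at 4160.2 on chow and 14533 on GW501516 in transgenic mice, and 884.2 and 2436 in wild type. Its order followed the transgene and the agonist together, with a difference of 3.49-fold in transgenic mice and 2.76-fold in wild type. Mfge8, which coats the globule, was 2.25-fold higher, and Agpat1, an acyltransferase of phospholipid and triglyceride synthesis, 2.08-fold higher. Cidea, a lipid droplet protein, stood at 2.0-fold higher. The more general lipogenic genes of the list were within 2-fold, among them Plin2, which coats lipid droplets (7680.4 on chow and 11489.9 on GW501516, log2 0.58), Lpl, lipoprotein lipase (0.68), and Fasn, fatty acid synthase (0.42).

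Transport genes of the secretory epithelium were high in the same pool. Of 10 measured genes of ion and water transport, 5 were called higher and 0 lower, beside 3.97% and 4.06% of all genes. Their median was 1.09 (0.18 in wild type). Scnn1g, a subunit of the epithelial sodium channel, was read at 116.5 on chow and 896.5 on GW501516 in transgenic mice, and 82.3 and 31.7 in wild type. It was 7.7-fold higher on GW501516 in transgenic mice and lower in wild type, by a log2 difference of -1.38. Scnn1b, a second subunit of the channel, was read at 73.8 on chow and 333.9 on GW501516 in transgenic mice, and 81.6 and 95.7 in wild type. For both subunits the transgenic GW501516 pool alone stood above the others.

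Slc34a2, the sodium phosphate cotransporter, was read at 456.0 on chow and 1632 on GW501516 in transgenic mice, and 36.3 and 92.9 in wild type, and Aqp3, a channel for water and glycerol, at 780.0 on chow and 1808.5 on GW501516 in transgenic mice, and 51.0 and 26.4 in wild type. Both were higher in transgenic than in wild-type pools on either diet, and their differences on the agonist were 3.58-fold and 2.32-fold. Aqp5, a second water channel, had another pattern, at 219.1 on chow and 865.1 on GW501516 in transgenic mice, and 755.9 and 869.8 in wild type, where the transgenic chow pool was the low one. All 5 measured amino acid transporters were above 0 but within 2-fold, from 0.19 for Slc38a2 to 0.73 for Slc7a5. Atp2c2, a calcium and manganese pump of the secretory pathway, was read at 63.8 on chow and 512.9 on GW501516 in transgenic mice, and 47.0 and 112.7 in wild type. Folr1, the folate receptor whose soluble form is found in milk, and Nucb2, a calcium-binding protein, were picked after their values were seen. Folr1 was read at 847.3 on chow and 5162 on GW501516 in transgenic mice, and 354.3 and 749.5 in wild type, and Nucb2 at 787.3 on chow and 3354 on GW501516 in transgenic mice, and 570.7 and 603.6 in wild type, each highest in the transgenic GW501516 pool.

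**Figure D2:**
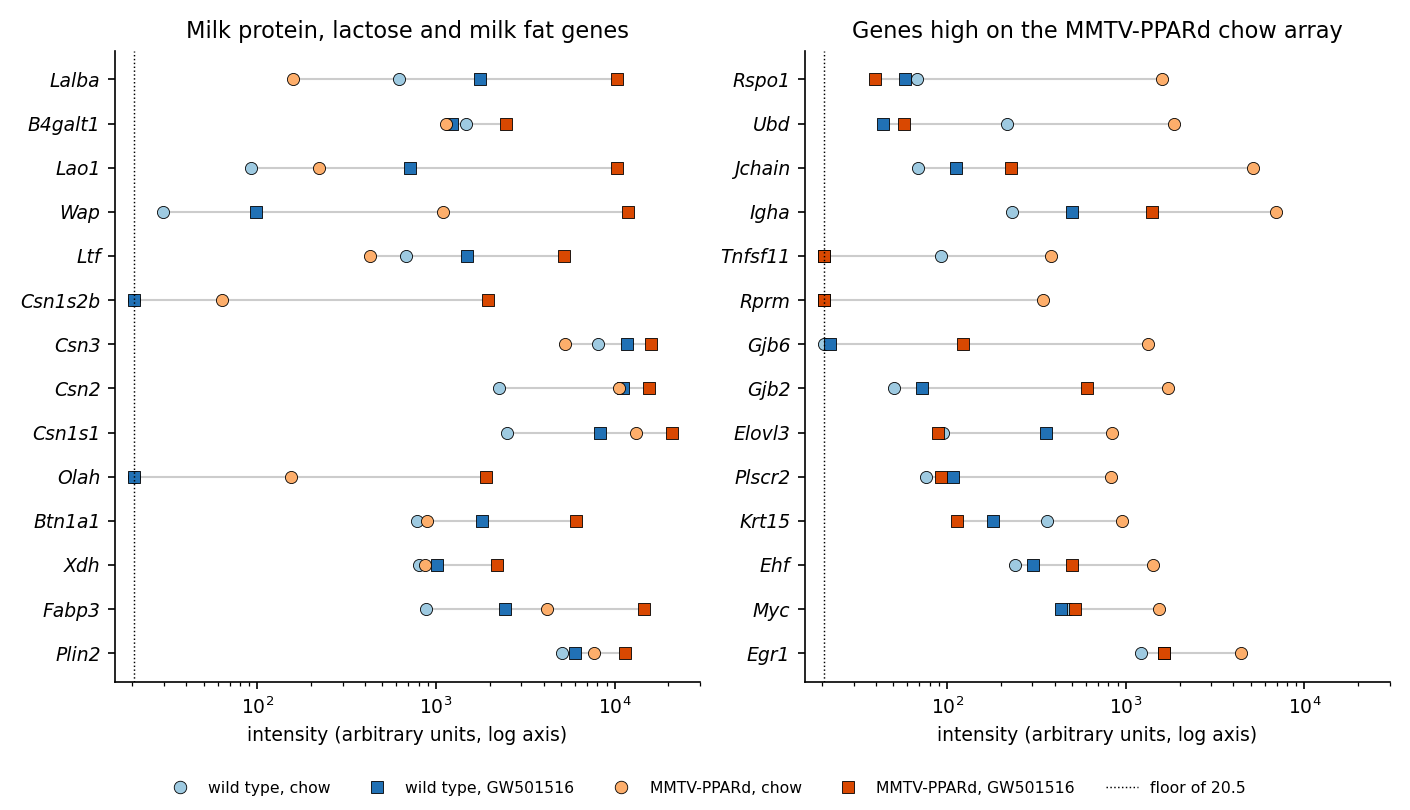
Intensity (log axis) of 14 milk genes and 14 genes that were high on the transgenic chow array, with 1 symbol per array and the floor as a dotted line. On the left the transgenic GW501516 array is the highest for every gene drawn, but these are a selection that leaves out milk list members below 0, such as Glycam1. On the right the transgenic chow array is the highest for every gene drawn, because the genes were chosen for that.

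Genes of mucosal defence were also high in that pool. Pigr, the receptor that carries IgA across the epithelium into milk, was read at 489.5 on chow and 2115 on GW501516 in transgenic mice, and 18.1 and 36.5 in wild type, a difference of 4.32-fold in transgenic mice. Saa1 and Saa2, acute phase apolipoproteins, were 6.52-fold and 10.1-fold higher. Saa1 was read at 428.8 on chow and 2794 on GW501516 in transgenic mice, and 9.2 and 82.5 in wild type, and both were low in wild type. Lcn2, a siderophore-binding defence protein, was 3888 on chow and 9489.9 on GW501516 in transgenic mice. In wild type Lcn2 was 3141 and 6474. Within the acute phase and innate defence list, 6 of 14 genes were called higher and 1, the defensin Defb1 (149.8 on chow and 30.6 on GW501516), lower. Of all genes 3.97% were called higher and 4.06% lower. The same list had 6 called higher and 1 lower in wild type, and the medians were 0.51 in transgenic mice and 0.73 in wild type. Apart from Saa1 and Saa2, members best known as plasma proteins of the liver were within 2-fold in transgenic mice but did not move one way. They ran from Hp, haptoglobin (5042 on chow and 3102 on GW501516, log2 -0.70), over Fgb (0.03) and Orm1 (0.04) to Lbp, which binds lipopolysaccharide (870.2 on chow and 1711 on GW501516, log2 0.98). Fgb was close to the floor in both transgenic pools, at 32.0 on chow and 32.7 on GW501516.

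Regulators of the alveolar lineage were read beside the milk genes. Of 13 measured genes for alveolar transcription factors and prolactin signalling, 0 were called higher and 1, Ehf, was lower. Their median was -0.24 (-0.04 in wild type). Elf5, the ETS factor of the alveolar lineage, was read at 4920.3 on chow and 6524 on GW501516 in transgenic mice, and 882.3 and 1295 in wild type, so the 2 transgenic pools were both high and differed by 0.41 on the log2 scale. The other probe set of Elf5 gave 1.10, which is over 2-fold higher, so whether Elf5 reached 2-fold depends on the probe set. Stat5a had a difference of -0.29, Gata3, a luminal transcription factor, of -0.25, and Cish, a feedback inhibitor of STAT5 signalling, of -0.38. Ehf, an epithelial ETS factor, was read at 1411 on chow and 499.4 on GW501516 in transgenic mice, and 240.1 and 301.1 in wild type, where the transgenic chow pool alone was high.

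The structural markers of the epithelium were nearly level between the transgenic pools in sum. The 19 luminal markers had a median of 0.01 (0.39 in wild type), whose sign changed when no filter was used, with 2 called higher and 1 called lower. Their summed intensity was 44064 on chow and 47439 on GW501516 in transgenic mice, and 31795 and 35999 in wild type. Epcam, an adhesion protein of all epithelial cells, was 5565 on chow and 5309 on GW501516 in transgenic mice, and Krt18, a luminal keratin, was 5851 on chow and 6789.7 on GW501516. The 2 called higher were Tspan8, a tetraspanin (132.3 on chow and 786.7 on GW501516 in transgenic mice, and 297.7 and 823.5 in wild type), and Muc1, an apical mucin (206.8 on chow and 479.0 on GW501516 in transgenic mice). The one called lower was Cdh1, E-cadherin, at 1829 on chow and 814.6 on GW501516 in transgenic mice, and 454.1 and 912.1 in wild type.

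Basal and myoepithelial markers had a median of -0.36 (0.19 in wild type). Beside 3.97% of all genes called higher and 4.06% lower, 0 of 14 were higher and 3 were lower. Those were Snai2, a transcription factor of basal cells (463.9 on chow and 139.3 on GW501516 in transgenic mice, and 248.6 and 370.8 in wild type), the keratin Krt17 (199.8 on chow and 78.7 on GW501516 in transgenic mice) and Trp63, a basal lineage factor (592.4 on chow and 249.3 on GW501516), whose other probe sets pointed the opposite way. The contractile genes Acta2 and Cnn1 differed by 0.06 and 0.01. Krt14, a basal keratin, was 3652 on chow and 2818 on GW501516 in transgenic mice, and 323.2 and 334.9 in wild type, so that it was high in both transgenic pools. In whole glands, fewer cells of a type and less RNA per cell cannot be told apart.

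A separate set of genes was high in the transgenic chow pool and lower in the transgenic GW501516 pool. Rspo1, R-spondin 1, a secreted amplifier of WNT signalling that luminal cells make in response to hormones, was read at 1604.5 on chow and 39.7 on GW501516 in transgenic mice, and 67.8 and 58.4 in wild type. That is 40.4-fold lower on GW501516, the largest decrease measured on both sides, and 1 pool alone carried it. Tnfsf11, RANK ligand, the paracrine signal of progesterone, was read at 382.4 on chow and 0.7 on GW501516 in transgenic mice, and 92.3 and 10.1 in wild type, or at least 18.7-fold lower, and its other probe set gave a log2 difference of -1.29. Wnt5b was read at 285.5 on chow and 51.8 on GW501516 in transgenic mice, and 88.9 and 113.8 in wild type, and Wif1, a secreted WNT inhibitor, at 956.0 on chow and 391.5 on GW501516 in transgenic mice, and 152.8 and 173.7 in wild type. Again the transgenic chow pool was the highest for each.

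The remaining WNT and hormone genes showed no common direction. Of 15 measured WNT pathway genes, 4 were at least 2-fold lower and 1, Wnt5a (252.7 on chow and 574.3 on GW501516), higher. The median was -0.06, and its sign changed when arrays were shifted to a common median and with the mean over probe sets; in wild type it was 0.25. Axin2, a direct target of the pathway, was 158.5 on chow and 88.6 on GW501516. Of 9 estrogen and progesterone response genes, Tnfsf11 was lower and Greb1, an estrogen target (15.9 on chow and 71.5 on GW501516 in transgenic mice, and 149.1 and 29.0 in wild type), and Stc2, a secreted glycoprotein (376.2 on chow and 1006 on GW501516 in transgenic mice, and 1099 and 1158 in wild type), were at least 2-fold higher. For those 2 the transgenic chow pool was the lowest of the 4. Wnt4 (-0.06), a progesterone target, and Ccnd1, cyclin D1 (-0.12), were close to 0.

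Immunoglobulin A genes were highest in the transgenic chow pool too. Jchain, which joins IgA into dimers, was read at 5161 on chow and 227.0 on GW501516 in transgenic mice, and 68.9 and 112.4 in wild type, 22.7-fold lower on GW501516. Igha, the IgA heavy chain, was read at 6955 on chow and 1409 on GW501516 in transgenic mice, and 229.4 and 502.6 in wild type, 4.94-fold lower in transgenic mice but higher in wild type by a log2 difference of 1.13. Both light chain and heavy chain readings can share probes within their gene families and are uncertain for a single segment. The plasma cell markers Sdc1 and Xbp1, both also made by epithelium, differed by -0.15 and 0.45. In contrast to the IgA chains, Pigr was higher on GW501516, as given above.

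Some cell junction genes were among the lower ones. Gjb6, a connexin of epithelial gap junctions, was read at 1326 on chow and 123.3 on GW501516 in transgenic mice, and 10.5 and 22.1 in wild type. Gjb2, a second connexin, was read at 1729.7 on chow and 603.0 on GW501516 in transgenic mice, and 50.4 and 72.8 in wild type. Both transgenic pools exceeded both wild-type pools for each, and the chow pool was higher than the GW501516 pool by 10.8-fold and 2.87-fold. Of 12 measured connexin, claudin and tight junction genes, these 2 and Cldn8 (733.4 on chow and 336.7 on GW501516 in transgenic mice, and 190.3 and 250.2 in wild type) were lower and 0 higher. Of all genes 4.06% were called lower and 3.97% higher. The claudins of the luminal list were level, with Cldn3 at 0.01 and Cldn7 at -0.34.

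Genes of other kinds were also highest in the transgenic chow pool. Ubd, a ubiquitin-like modifier induced by interferon and tumour necrosis factor, was read at 1863.5 on chow and 57.1 on GW501516 in transgenic mice, and 217.2 and 43.8 in wild type. It was lower on GW501516 in both genotypes, 32.6-fold in transgenic mice and 4.96-fold in wild type. Elovl3, a fatty acid elongase, was read at 839.0 on chow and 89.2 on GW501516 in transgenic mice, and 95.3 and 359.7 in wild type, which is 9.41-fold lower in transgenic mice and 3.77-fold higher in wild type. Rprm, a cell cycle inhibitor downstream of p53, was read at 344.7 on chow and 10.3 on GW501516 in transgenic mice, and 11.8 and 9.5 in wild type. Bcl2l15 (941.2 on chow and 145.8 on GW501516 in transgenic mice, and 19.6 and 12.7 in wild type), a relative of BCL2, and Krt15, a basal keratin (947.5 on chow and 114.3 on GW501516 in transgenic mice, and 360.4 and 180.5 in wild type), were lower as well. The scramblase-family gene Plscr2 was read at 830.2 on chow and 91.9 on GW501516 in transgenic mice, and 76.1 and 107.4 in wild type, and the lipoxygenase Alox12e at 199.3 on chow and 22.0 on GW501516 in transgenic mice, and 39.9 and 42.0 in wild type.

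Immediate early genes, which respond within minutes to growth factors, were lower. Of 16 measured, 15 were below 0 and 5 at least 2-fold, beside 4.06% of all genes at least 2-fold lower. Their median was -0.61 (-0.10 in wild type). Egr1 was read at 4410.3 on chow and 1639 on GW501516 in transgenic mice, and 1217 and 1628 in wild type. Myc was read at 1540.2 on chow and 521.9 on GW501516 in transgenic mice, and 481.9 and 431.9 in wild type. Fos was read at 2802 on chow and 1394 on GW501516 in transgenic mice, and 394.0 and 1486 in wild type. Myc and Egr1 were high in the transgenic chow pool only, whereas Fos was lowest in wild type on chow and alike on both GW501516 arrays. Ccn1 and Dusp1 were the other 2 called, at 930.1 on chow and 433.7 on GW501516, and at 2355 on chow and 1141.5 on GW501516, in transgenic mice.

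The 20 lower genes with the transgenic GW501516 pool as the odd one included 2 secretory genes. Clca3a2, a chloride channel accessory protein, was read at 830.6 on chow and 111.1 on GW501516 in transgenic mice, and 385.6 and 933.4 in wild type, and Fcgbp, a mucus protein that binds IgG, at 196.3 on chow and 29.5 on GW501516 in transgenic mice, and 148.8 and 500.2 in wild type. Both were higher on GW501516 in wild type and 7.48-fold and 6.65-fold lower in transgenic mice. Most of the 10 largest of that set were genes of lymphocytes or lymphoid tissue. They included Ptprcap, a partner of CD45 (200.7 on chow and 11.6 on GW501516 in transgenic mice, and 697.0 and 67.2 in wild type), Cd79b, a chain of the B cell receptor complex (368.0 on chow and 48.8 on GW501516 in transgenic mice, and 920.4 and 112.8 in wild type), and Cd3e, a chain of the T cell receptor complex (99.6 on chow and 9.8 on GW501516 in transgenic mice, and 265.1 and 48.7 in wild type). Others were Gzma, a granule protease (253.2 on chow and 38.2 on GW501516 in transgenic mice, and 127.2 and 86.1 in wild type), Itgb7, an integrin of gut-homing lymphocytes (104.2 on chow and 26.2 on GW501516 in transgenic mice, and 221.5 and 58.5 in wild type), and the B cell chemokine Cxcl13 (1032 on chow and 209.4 on GW501516 in transgenic mice, and 2189 and 708.7 in wild type).

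Skeletal muscle genes were higher on GW501516 in both genotypes. Of 26 measured sarcomere and fast fibre genes, 25 were called higher in transgenic mice, beside 3.97% of all genes. Their median was 2.16 in transgenic mice and 3.83 in wild type. Myh1, a fast myosin heavy chain, was read at 1194 on chow and 7544 on GW501516 in transgenic mice, and 168.9 and 9835 in wild type. Actn2, an α-actinin of the Z disc, was read at 145.0 on chow and 1134 on GW501516 in transgenic mice, and 47.1 and 1616 in wild type. Both arrays with GW501516 were high and both chow arrays low, with the transgenic chow pool above the wild-type one. The summed intensity of the list was 22948 and 49594.5 on chow for the wild-type and the transgenic pool, and 173339 and 165510.5 on GW501516. Slow fibre genes went with them, 4 of 6 being higher, such as Mb, myoglobin (912.8 on chow and 3548 on GW501516 in transgenic mice, and 85.6 and 4056 in wild type).

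Lymphocyte genes were lower on GW501516 in both genotypes. Of 15 measured T cell markers 14 were at least 2-fold lower, with a median of -2.21 (-3.85 in wild type), and of 11 B cell markers 8 were, with a median of -2.28 (-2.99). Of all genes 4.06% were called lower. Cd3d, a chain of the T cell receptor complex, was read at 533.1 on chow and 40.4 on GW501516 in transgenic mice, and 1841 and 30.8 in wild type, and Ms4a1, the B cell antigen CD20, at 625.3 on chow and 17.6 on GW501516 in transgenic mice, and 1028 and 24.5 in wild type. Both markers were close to the floor on both GW501516 arrays. The summed T cell intensity was 7722 and 2769 on chow for the wild-type and the transgenic pool and 732.6 and 602.6 on GW501516. The summed B cell intensity was 6128, 3273, 2081 and 1486 in the same order. On the transgenic GW501516 array 8 T cell and 5 B cell markers were below the floor, and on the transgenic chow array 0 and 0. T and B cell medians depended on the floor and filter, lying between -3.09 and -0.56 and between -2.74 and -0.77 over the settings tried.

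Many genes of lymph node stroma and of antigen presentation were lower beside the lymphocyte markers. Of 7 measured lymph node stroma and vessel genes 4 were called lower and 1 higher, with a median of -1.21 (-1.04 in wild type). The one called higher was Mfge8 (1.17), also a milk fat globule gene, while Cd34, of vessels and stroma, differed by 0.25 and Glycam1 by -0.95. Madcam1, an addressin of specialised venules, was read at 202.6 on chow and 46.1 on GW501516 in transgenic mice, and 87.9 and 42.8 in wild type. Ltb, lymphotoxin β, was read at 956.8 on chow and 74.2 on GW501516 in transgenic mice, and 1948 and 83.1 in wild type, and Ccl5, a T cell chemokine, at 1417 on chow and 140.9 on GW501516 in transgenic mice, and 3633 and 143.6 in wild type. Of 10 MHC class II and dendritic cell genes all 10 were below 0, 6 of them at least 2-fold. Of 19 chemokine genes 8 were lower and 1 higher, and of 10 TNF superfamily genes 7 were lower and 1 higher. Of all genes 4.06% were called lower and 3.97% higher. Not all lower TNF genes had the lymphocyte pattern, since Tnfsf11 and Tnfrsf19 were high in the transgenic chow pool alone. Tnfrsf19 was read at 217.5 on chow and 89.5 on GW501516 in transgenic mice, and 47.5 and 91.8 in wild type. Of 17 macrophage markers 0 were called higher and 3 lower, with 11 above 0 and a median of 0.26 (-0.3 in wild type). Adgre1 and Csf1r, which define the lineage, differed by 0.56 and 0.26. Called lower were Cd83 (504.9 on chow and 150.3 on GW501516 in transgenic mice) and Ctss (3798 on chow and 1848 on GW501516). The other was Marco, a scavenger receptor also of lymph node macrophages. It was read at 199.2 on chow and 2.6 on GW501516 in transgenic mice, and 410.8 and 1.0 in wild type.

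Of the 629 called genes, 191 (30.4%) had log2 values that followed the mean of the muscle, T cell or B cell list over the 4 arrays with a correlation above 0.95. Of all 7836 genes, 581 did so. Each correlation rested on 4 values, and the members of a list were part of its mean. Without all genes that followed 1 of these lists, 212 genes were higher and 226 lower. Muscle and lymphocyte RNA differed in the same direction in both genotypes, and what part the dissected tissue plays in these genes was not tested. Of 7 measured salivary gland genes 5 were below the floor on the transgenic chow array and 5 on the transgenic GW501516 array; Bpifa2, a salivary secretory protein, read 1.3 on chow and 9.4 on GW501516 in transgenic mice, and 6.3 and 3719 in wild type.

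**Figure D3:**
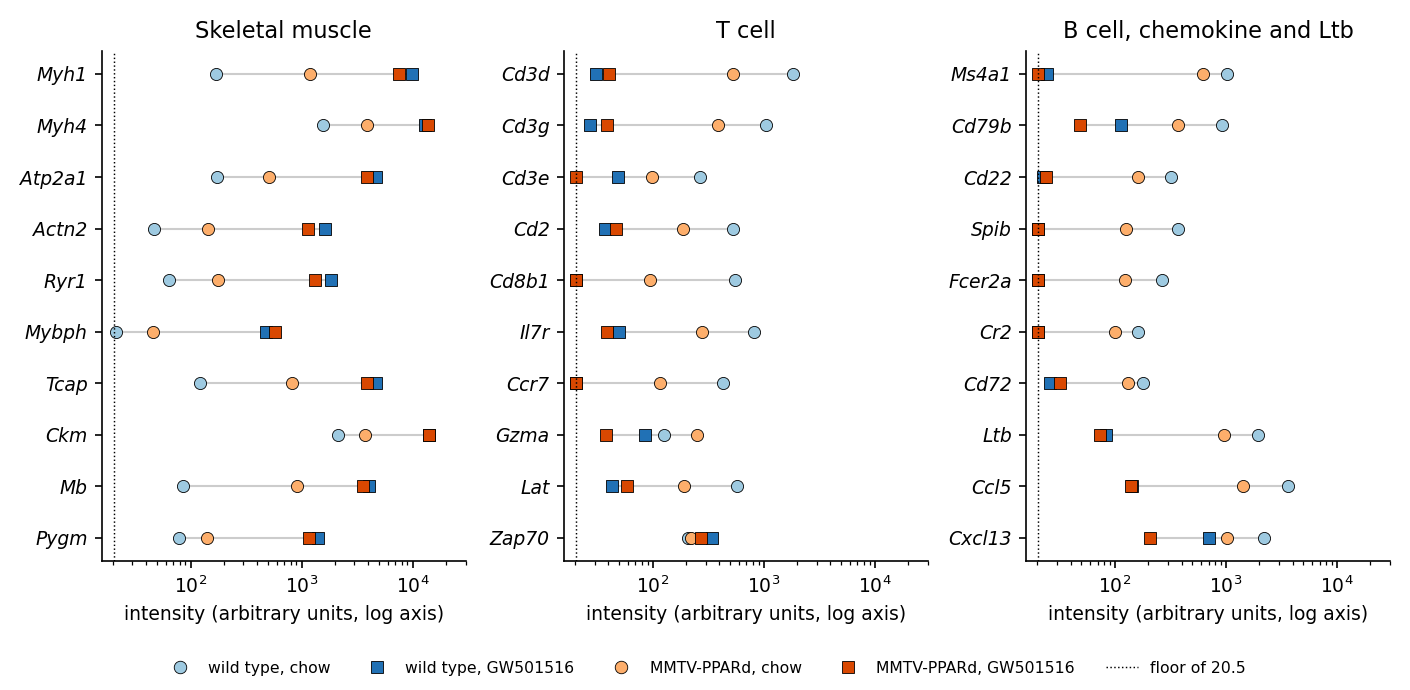
Intensity (log axis) of muscle genes, T cell genes, and B cell, chemokine and lymphotoxin genes, 1 symbol per array, with the floor as a dotted line. Squares (GW501516) lie right of the circles (chow) for the muscle genes and left of them for all lymphocyte genes drawn but Zap70.

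Most genes that PPARδ is best known to control were within 2-fold, as most of all genes were. Of 21 measured PPAR target genes 2 were called higher and 0 lower, beside 3.97% and 4.06% of all genes. Their median was 0.06 (0.14 in wild type). The 2 were Fabp3 and Ucp3, a mitochondrial carrier of muscle (393.1 on chow and 1055 on GW501516 in transgenic mice, and 255.7 and 482.3 in wild type). Pdk4, a kinase that holds back glucose oxidation, was read at 4059.7 on chow and 3719 on GW501516 in transgenic mice, and 4172 and 5446 in wild type, a log2 difference of -0.13. Angptl4, an inhibitor of lipoprotein lipase, was 4835 on chow and 6285 on GW501516 in transgenic mice, and 4852 and 4556 in wild type (0.38), and Cpt1a, which admits fatty acids to mitochondria, was 942.6 on chow and 836.1 on GW501516 in transgenic mice (-0.17). For all 3 genes the chow and GW501516 values overlapped across genotypes. Some targets had instead a transgene level: Acot1, an acyl-CoA thioesterase, was read at 4503 on chow and 2494 on GW501516 in transgenic mice, and 656.7 and 972.6 in wild type, and Acaa1b, a peroxisomal thiolase, at 3837.5 on chow and 6432 on GW501516 in transgenic mice, and 828.8 and 1973 in wild type, both higher in transgenic pools on either diet and within 2-fold between them.

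None of 18 mitochondrial fatty acid oxidation genes or 15 peroxisomal genes reached 2-fold, with medians of -0.07 and 0.01, the second changing sign with quantile normalization, with no filter and with the mean over probe sets. Among 12 receptors and coregulators Ppard alone was called. Its relatives Ppara and Pparg differed by -0.79 and -0.09, and Rxra, a retinoid X receptor, by 0.49. In fatty acid synthesis Elovl3 was the only one of 16 called, but 13 were above 0, with Srebf1, a transcription factor of lipogenesis, at 4118 on chow and 6664 on GW501516. In cholesterol synthesis Mvd was the only one of 14 called (80.0 on chow and 170.8 on GW501516).

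Glycolysis had 3 genes called higher and a median of 0.43 in wild type. In transgenic mice 6 of 18 measured were called higher, beside 3.97% of all genes, and 0 lower, with a median of 0.87. Among those called, 3 were muscle isoforms, Pfkm (563.8 on chow and 2007 on GW501516 in transgenic mice, and 381.7 and 2267 in wild type), Eno3 (2009.6 on chow and 8245 on GW501516 in transgenic mice, and 686.6 and 8828 in wild type) and Pgam2 (1029.8 on chow and 4987 on GW501516 in transgenic mice, and 262.8 and 5841 in wild type), which were high on both GW501516 arrays as the sarcomere genes were. Aldoc, an aldolase not of that set, was read at 1638 on chow and 3486 on GW501516 in transgenic mice, and 871.6 and 996.7 in wild type, high in the transgenic GW501516 pool alone. Gapdh and Pkm (736.2 on chow and 1701 on GW501516 in transgenic mice, and 1282 and 1959.7 in wild type) were instead lowest in the transgenic chow pool. Of 32 respiratory chain genes only Cox6a2, the muscle form of a cytochrome oxidase subunit (713.8 on chow and 2879 on GW501516 in transgenic mice, and 202.6 and 4149 in wild type), was called.

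Genes of white fat, stroma and vessels were mostly within 2-fold. White adipocyte markers had a median of 0.39 with 1 of 14 called, the imprinted gene Nnat (173.3 on chow and 517.0 on GW501516 in transgenic mice, and 923.9 and 366.8 in wild type); Lep, leptin, differed by 0.32 and Fabp4 by 0.50. Brown adipocyte markers were called in both directions, 2 of 10 higher and 2 lower, with a median of -0.04, whose sign changed when arrays were shifted to a common median; in wild type 3 were higher and 0 lower. Higher were Cidea (1.00) and Fabp3 (1.80), which also belong to the milk fat list, and lower were Elovl3 (-3.23) and Ucp1. Ucp1, the uncoupling protein of brown fat, was 4658 on chow and 2264 on GW501516 in transgenic mice, and 3316 and 5045.5 in wild type, lower in transgenic mice by a log2 difference of -1.04. Of 27 fibroblast and matrix genes 24 were above 0, with a median of 0.45 and none at least 2-fold higher, while Mmp3, stromelysin, was lower (1169.5 on chow and 412.9 on GW501516 in transgenic mice, and 641.1 and 439.2 in wild type). Col1a1 was 1065 on chow and 1751 on GW501516 in transgenic mice, and 2782 and 2280.4 in wild type, lowest in the transgenic chow pool, and its other probe sets gave a log2 difference of 1.30 against 0.72 for the one used. None of 12 endothelial markers was called.

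Cell cycle genes were slightly lower. Of 19 mitosis genes 18 were below 0, none at least 2-fold, with a median of -0.32 (-0.27 in wild type); Mki67, a marker of cycling cells, was read at 1017 on chow and 935.8 on GW501516 in transgenic mice, and 447.5 and 401.4 in wild type. Both transgenic pools exceeded both wild-type pools. Of 17 replication genes, 1 was called, Ccne2, cyclin E2 (301.3 on chow and 147.1 on GW501516 in transgenic mice, and 135.1 and 174.7 in wild type). None of 17 genes of the PDK1, AKT and mTOR pathway was called: Pdpk1, which encodes PDK1, a kinase that activates AKT, differed by -0.18, and the furthest were Irs1 (0.94) and Ddit4 (-0.85). Among clock genes Arntl (157.3 on chow and 54.6 on GW501516 in transgenic mice, and 100.9 and 56.1 in wild type) was lower. Both GW501516 arrays had the lower Arntl value. Tef, which oscillates against Arntl, was at 0.70. Per3 was at 0.65, but its other probe sets had the opposite sign. Ribosomal protein genes had a median of 0.13, which became -0.18 under quantile normalization.

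**Figure D4:**
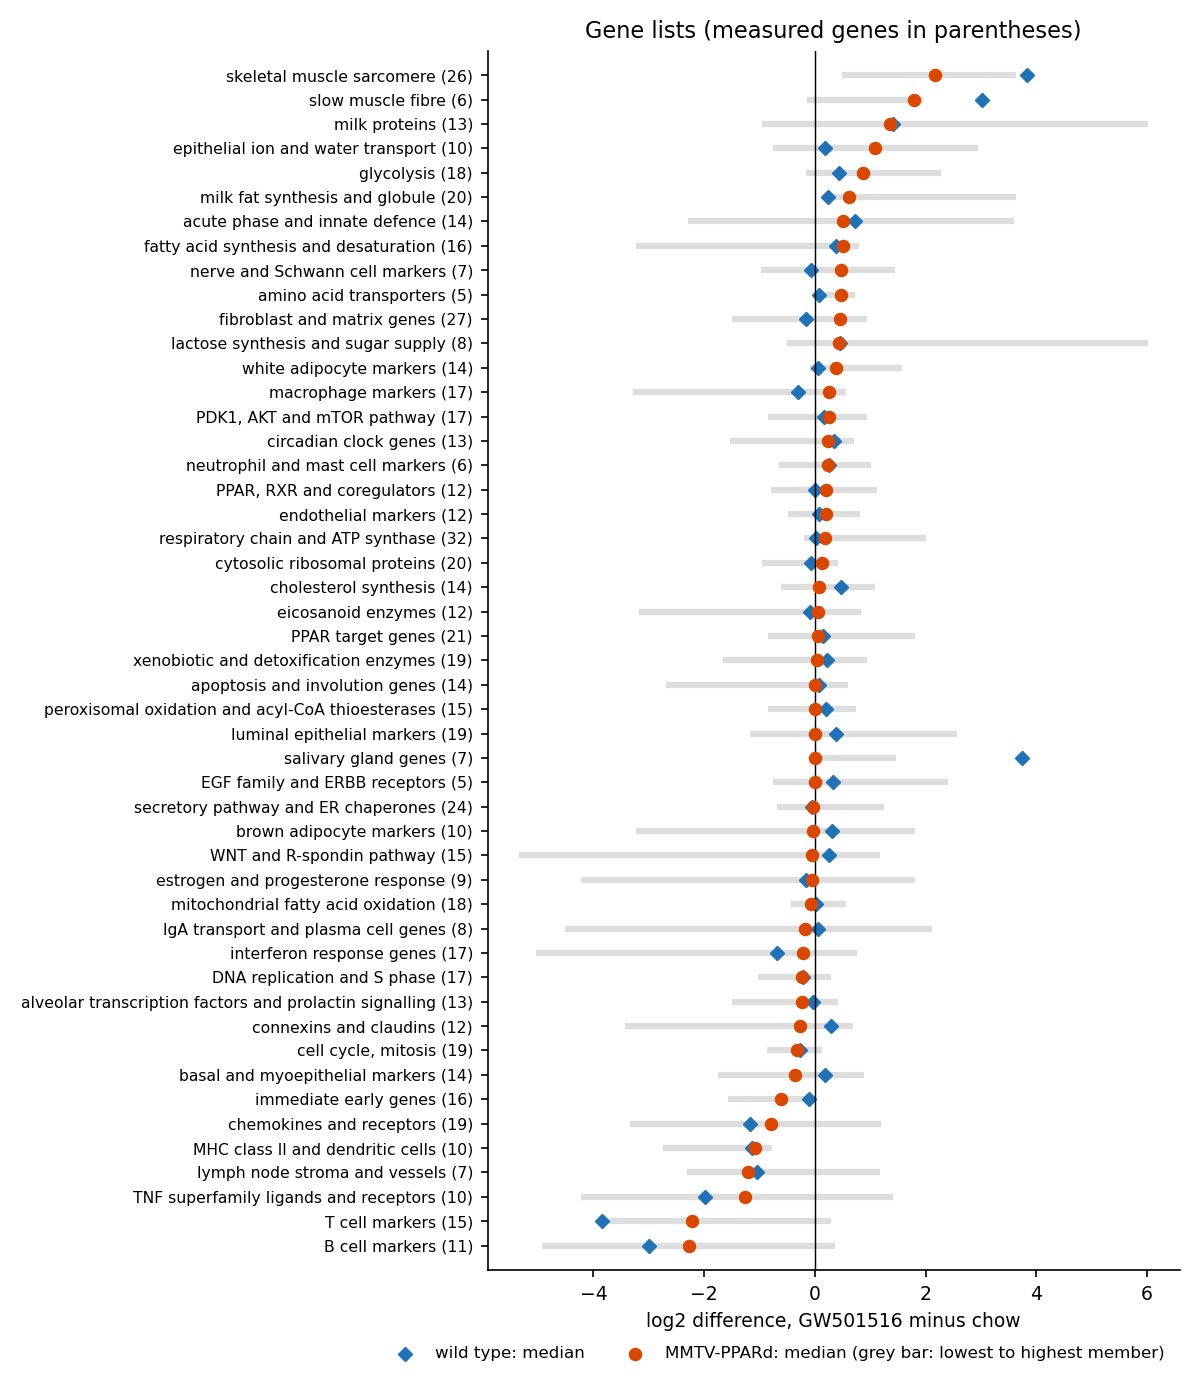
Median log2 difference (GW501516 minus chow) of each gene list with at least 5 measured genes in transgenic mice (circles) and wild type (diamonds); grey bars run from the lowest to the highest member in transgenic mice. Lists are ordered by the transgenic median: the muscle lists are highest and the T and B cell lists lowest, and ion and water transport (1.09 against 0.18) has the transgenic median farther from 0.

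Side by side with wild type, where 248 genes (3.16%) were at least 2-fold higher on GW501516 and 255 (3.25%) lower, 149 genes were higher in both genotypes, which is 47.9% of the transgenic and 60.1% of the wild-type list. Lower in both were 120 genes, 37.7% and 47.1% of the lists. The 2 differences share no array. Of genes above the floor on all 4 arrays, those with the transgenic difference farthest above the wild-type one were Lalba, Scnn1g, Mmd2, Ngfr, Tc2n, Dkkl1, Ido1 and Prtn3. Tc2n, a C2 domain protein, was read at 46.9 on chow and 499.4 on GW501516 in transgenic mice, and 23.7 and 26.9 in wild type, and Dkkl1 at 101.5 on chow and 716.4 on GW501516 in transgenic mice, and 185.9 and 168.0 in wild type; both were high in the transgenic GW501516 pool only. Ngfr, a neurotrophin receptor, and Ido1, which degrades tryptophan, were instead highest in wild type on chow. Ngfr was read at 51.6 on chow and 137.5 on GW501516 in transgenic mice, and 614.9 and 152.7 in wild type. Ido1 was read at 47.4 on chow and 68.1 on GW501516 in transgenic mice, and 718.3 and 135.9 in wild type.

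At the other end were Rspo1, Jchain, Elovl3, Fcgbp, Clca3a2, Plscr2, Shisa2 and Asb5. Shisa2 was read at 835.4 on chow and 415.9 on GW501516 in transgenic mice, and 62.9 and 451.3 in wild type, with its lowest value in wild type on chow. Asb5, a muscle gene, was read at 224.2 on chow and 574.2 on GW501516 in transgenic mice, and 28.2 and 923.0 in wild type, higher on GW501516 in both genotypes and by less in transgenic mice. At least 2-fold in opposite directions, 9 genes were higher in transgenic mice and lower in wild type, and 10 the reverse. With 1 array per group the difference between the genotypes' effects was not tested.

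**Figure D5:**
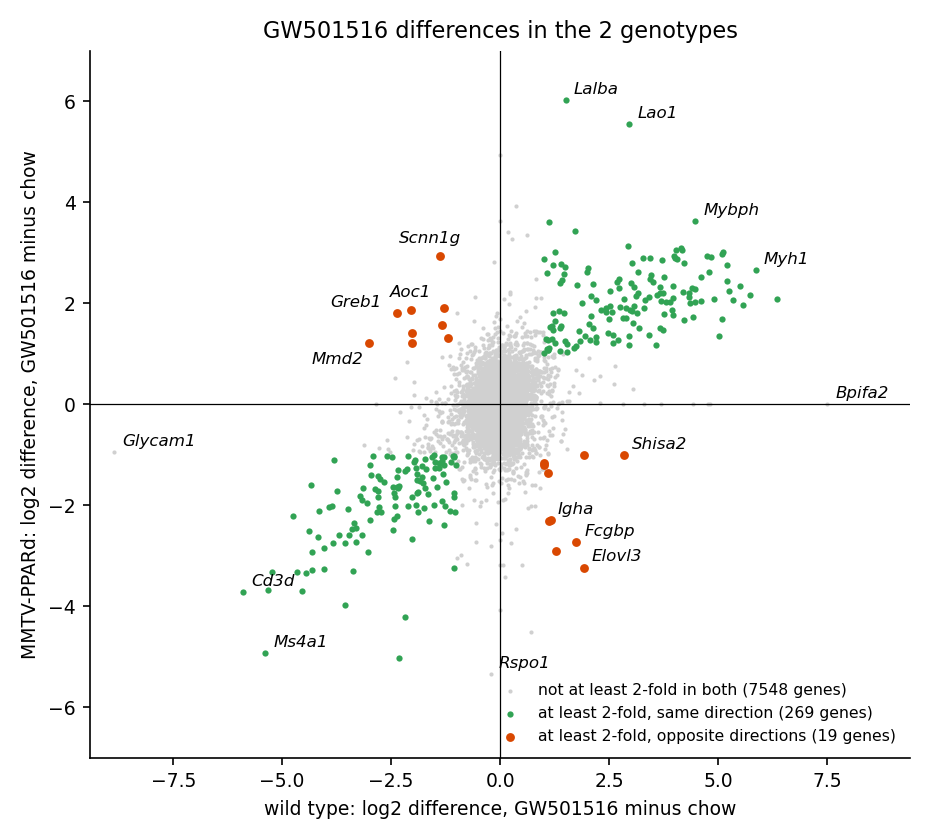
Log2 difference on GW501516 in wild type (horizontal) and in transgenic mice (vertical) for 7836 genes; 269 genes were at least 2-fold in the same direction in both and 19 in opposite directions. Muscle genes lie at the upper right and lymphocyte genes at the lower left, whereas Rspo1 and Scnn1g lie off that diagonal.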

How the data were processed

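RNA from whole mammary glands was labelled (6 µg per array) and hybridised to Affymetrix mouse arrays, per the labels' protocols. The values the authors deposited are probe set intensities on a linear scale; their mean without the lowest and highest 2% was 499.95 to 499.96 on every array, which shows a scaling to 1 trimmed mean. Which software and summarisation made them, any detection calls and the genome build are not given in the sources used here. Precision is limited by the number of arrays.

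Gene symbols came from the platform annotation: 20393 probe sets had 1 symbol (20364 updated by gene ID through RefSeq GRCm38.p6), 691 had several and were not used, and 1606 were not named. The probe set with the highest mean log2 value represented a gene. Values below 20.5 were raised to it, and a gene was kept if 1 array reached 139. A called gene differed at least 2-fold. An array was apart where it was at least 2-fold above or below each of the other 3. The genes named were the 25 highest and 25 lowest, the 10 largest of each array pattern and direction, up to 6 members of each of 52 lists, the 8 with the most different effects each way, and Ppard, Pdk4, Angptl4, Plin2, Cpt1a, Gapdh and Actb, 322 in all; further list members and genes are named where a sentence turns on them, after their values were seen. The lists, the rule and the comparison were chosen with earlier results of these data known. Alternatives covered scaling, floor, filter, probe set choice, unit, threshold and tissue genes. Python 3.11.15, pandas 2.3.3 and numpy 2.4.6 were used, and the steps were tested on simulated data.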

Additional observations from a re-analysis of the deposited data

Results flagged for a closer look

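For 15 genes named by the rule, 1 genotype was at least 2-fold higher on GW501516 and the other at least 2-fold lower. With 1 array per group, each genotype gives a single difference, and the difference between them was not tested.

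In 7 of them the transgenic difference was positive and the wild-type one negative. The transgenic log2 differences were 2.94 for Scnn1g, a sodium channel subunit, 1.90 for Sprr1a, a protein of the cornified envelope, 1.87 for Aoc1, a diamine oxidase, 1.80 for Greb1, an estrogen target, 1.58 for Nnat, 1.41 for Ngfr and 1.22 for Mmd2. For Sprr1a, Aoc1 and Greb1 the transgenic chow value lay below the floor, so these are lower bounds. Scnn1g was highest in the transgenic GW501516 pool (896.5). The other 6 were highest in wild type on chow, as for Aoc1 (477.2 there and 11.2 to 116.1 elsewhere) and Mmd2 (760.8 there and 74.2 to 172.7 elsewhere).

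In 8 the transgenic difference was negative. It was -1.01 for Shisa2, -1.01 for Fos, an immediate early transcription factor, -1.17 for Cdh1, E-cadherin, -2.29 for Defb1, a defensin, -2.30 for Igha, the IgA heavy chain, -2.73 for Fcgbp, -2.90 for Clca3a2 and -3.23 for Elovl3, a fatty acid elongase. Shisa2, Fos, Cdh1, Defb1, Igha and Elovl3 were highest in the transgenic chow pool. Fcgbp and Clca3a2 were highest in wild type on GW501516, at 500.2 and 933.4, and lowest in the transgenic GW501516 pool, at 29.5 and 111.1.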

How the results depend on the processing

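No paired analysis was possible because each group was 1 array, and for the same reason no array could be left out, the transgenic chow array included. Genes called higher numbered 311, and 470 with the probe set as the unit. Genes called lower numbered 318, 549 with the probe set as the unit and 205 with the filter minimum doubled to 278. At a 3-fold threshold 1.77% of genes were higher and 1.54% lower, against 3.97% and 4.06% at 2-fold. Under the other alternatives (scaling, floors of 71.1 and 3.5, no filter, probe set choice, tissue genes left out) both counts stayed within 1.5 times. The transgenic GW501516 array was apart for 85 genes (62 to 112) and the transgenic chow array for 127 (92 to 178), also within 1.5 times. Those ranges cover scaling, floor, filter and probe set choice. Counts of genes with 1 array apart were not made with tissue genes left out, by probe set or at 3-fold. The share of called genes that were higher was 49.4%, and 56.8% with arrays shifted to a common median. The median over all genes lay between -0.034 and 0.037 over the settings tried. Of 158 named genes called, 126 stayed at least 2-fold under every alternative in which they had a value, and 0 turned direction. Genes below the floor have no order, and the deposited values carry no detection calls.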
